A study of Mus musculus with 6 samples.

Results

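The genes described here are those of the immune system's receptors, cytokines and chemokines. They were chosen by name alone: symbols of the Cd antigens, the Ccl and Cxcl chemokines and their receptors, interleukins and their receptors, the TNF, Toll-like receptor, Fc receptor, C-type lectin, Siglec, Lilr, Ms4a, C1q, colony-stimulating factor, interferon and interferon regulatory factor families, with *Cd74* and pseudogenes left out. This gave 58 members of the 4132 genes analysed, and the rule itself uses no measured value. The 4132 genes are part of a transcriptome, so other genes of these families can be missing. The name also takes in genes whose protein has another job, such as *Clec16a* and *Irf2bpl*.

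RNA-Seq was done on hearts of *db/db* mice (labelled lepr-/-), which lack the leptin receptor, become obese and develop type 2 diabetes. Starting at 10 weeks of age, 3 mice were injected intraperitoneally every other day over 16 weeks with FGF1ΔHBS, an FGF1 variant with reduced mitogenic activity, at 0.5 mg/kg, and 3 mice received the same amount of saline (vehicle). All 6 mice were 26 weeks old at the end, all carried the same mutation and no lean control mice were among them, so the comparison is of treated with untreated diabetic hearts. Values are FPKM, fragments counted on a gene, divided by transcript length and by library depth.

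Chemokines are small secreted proteins that draw leukocytes along a gradient by binding G protein-coupled receptors, whereas interleukins and TNF-family ligands signal through receptors tied to JAK-STAT or NF-kB. In the heart most of these genes are used by the resident macrophages, mast cells and the few lymphocytes between the cardiomyocytes, but fibroblasts, endothelial cells and cardiomyocytes also make some of them, among them *Cxcl12*, *Il1r1* and *Cd81*. In bulk tissue, fewer cells of a type and less RNA per cell cannot be told apart.

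None of the 29 members abundant enough to test, of the 58, passed an adjusted p-value of 0.05 by limma between FGF1ΔHBS and vehicle. At an unadjusted p-value under 0.05, 6 of the 29 members tested were lower in the treated hearts (20.7%, against 10% of all genes tested) and 1 was higher (3.45%, against 7.1%). With quantile normalization or a GC correction 4 of 29 were lower, against 8.48% and 8.34% of all genes. Under these settings 2 and 3 of 29 were higher, against 180 of 2041 and 182 of 2039 genes. Those lower were *Il4ra*, the signalling chain of the receptors for IL-4 and IL-13, *Cxcl16*, a membrane-bound chemokine, *Il1r1*, the IL-1 receptor, *Cd55*, a brake on complement, *Cd14*, the co-receptor for lipopolysaccharide, and *Cd72*, a co-receptor of B cells. The one higher was *Ccl11*, the eosinophil chemoattractant eotaxin. *Il4ra* and *Cxcl16* kept an unadjusted p-value under 0.05 in each of 15 alternative analyses, whereas the log2 fold changes of *Cd14* and *Cd72* went from -0.77 and -0.76 to -0.42 and -0.41 when 1 vehicle-treated mouse, replicate 3, was left out.

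The RefSeq promoter windows (build GRCm38.p6, 250 bases before to 50 bases after the RefSeq start of the gene, read 5′ to 3′ on the gene's strand) are shown for *Il4ra*, *Il1r1*, *Cd55* and *Cd72*, which are 4 of the 6 members whose treated mean was lower at an unadjusted p-value under 0.05. *Cxcl16* and *Cd14* are not shown. Of the 2 windows of *Il1r1*, the one nearest to the annotated start of the gene is given. Capitals mark a match to a searched motif. *Il4ra* lies on the + strand at chr7:125552021-125552320, *Il1r1* on the + strand at chr1:40224830-40225129, *Cd55* on the - strand at chr1:130462695-130462994 and *Cd72* on the - strand at chr4:43454577-43454876.
Il4ra: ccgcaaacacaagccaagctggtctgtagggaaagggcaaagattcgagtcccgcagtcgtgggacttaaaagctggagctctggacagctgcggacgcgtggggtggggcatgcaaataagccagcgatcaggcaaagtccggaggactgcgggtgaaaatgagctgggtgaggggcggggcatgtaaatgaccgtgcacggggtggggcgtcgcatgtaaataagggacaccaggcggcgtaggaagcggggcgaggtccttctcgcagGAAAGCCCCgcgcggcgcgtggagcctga
Il1r1: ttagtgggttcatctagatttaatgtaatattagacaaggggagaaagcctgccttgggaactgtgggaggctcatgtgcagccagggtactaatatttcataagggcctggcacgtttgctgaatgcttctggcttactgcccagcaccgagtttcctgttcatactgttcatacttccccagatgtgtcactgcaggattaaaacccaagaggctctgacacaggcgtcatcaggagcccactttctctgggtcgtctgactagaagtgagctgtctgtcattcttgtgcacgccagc
Cd55: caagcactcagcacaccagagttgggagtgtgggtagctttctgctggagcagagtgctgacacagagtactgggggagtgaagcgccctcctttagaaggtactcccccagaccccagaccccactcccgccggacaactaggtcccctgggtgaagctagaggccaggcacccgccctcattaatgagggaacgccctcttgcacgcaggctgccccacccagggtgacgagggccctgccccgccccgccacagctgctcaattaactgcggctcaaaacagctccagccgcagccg
Cd72: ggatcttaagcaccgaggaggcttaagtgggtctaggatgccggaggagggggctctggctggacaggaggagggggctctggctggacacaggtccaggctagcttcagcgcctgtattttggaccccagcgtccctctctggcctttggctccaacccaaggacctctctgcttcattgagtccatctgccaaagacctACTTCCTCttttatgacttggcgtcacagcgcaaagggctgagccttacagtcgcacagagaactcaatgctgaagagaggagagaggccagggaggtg

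These motifs were searched on both strands in 32851 RefSeq windows of the same length. The kappa-B-like motif GGGNNTTTC, which resembles sites of NF-kB, was in 4.36% of all windows, and *Il4ra* held it from 21 to 29 bases after the start. The ETS-like motif GAGGAAGT, of the kind bound by the leukocyte factor PU.1, was in 3.2% of windows, and *Cd72* held it from 49 to 42 bases before the start. The AP-1 motif TGANTCA (7.81% of windows), the STAT motif TTCNNNGAA (8.3%) and the motif of interferon-stimulated response elements GAAANNGAA (8.56%) had no match in these 4 windows. Of the 29 members tested, 22 had a window. Among these, *Irf2*, itself a factor that binds the interferon motif, held the interferon, STAT and kappa-B motifs, *Tnfrsf25* held the STAT and kappa-B motifs, *Clec2d* the interferon and kappa-B motifs, *Ifnar1* and *Il17d* the STAT motif, and *Irf2bpl* the ETS motif. A match describes the letters of a window and no binding was measured.

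The deposited table gives 1 value per gene and mouse and no read counts, so depth is known only relatively. Steps between low values put the libraries at 0.998 to 1.20 times the depth of vehicle replicate 1. The cardiomyocyte markers *Tnnt2* (4160 to 5101 FPKM) and *Actc1* (4132 to 5541 FPKM) were present in every library, as the label heart requires. The mitochondrial gene *mt-Co2* was listed at 0 in vehicle replicate 2 and at 29919 to 34716 FPKM in the others, and such a 0 can be a failed estimate.

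Levels of the members spanned more than 4 orders of magnitude, with a median of 1.09 FPKM against 0.932 FPKM for all 4132 genes. Only 6 members averaged 10 FPKM or more, 23 lay between 1 and 10 FPKM, 13 between 0.1 and 1 FPKM and 16 under 0.1 FPKM. The 29 at 1 FPKM or more were tested, and the other 29 were not. The highest was *Cd81*, a tetraspanin found on most cells, with means of 182 ± 2.52 FPKM for vehicle and 184 ± 9.17 FPKM for FGF1ΔHBS (SD, n = 3), followed by the tetraspanin *Cd151* at 121 ± 10.5 FPKM and 112 ± 7.46 FPKM. Neither is restricted to leukocytes. Next came *Cxcl12*, *Fcgrt*, *Clec2d* and *Clec16a*, so no member that defines a leukocyte reached 10 FPKM.

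**Figure D1:**
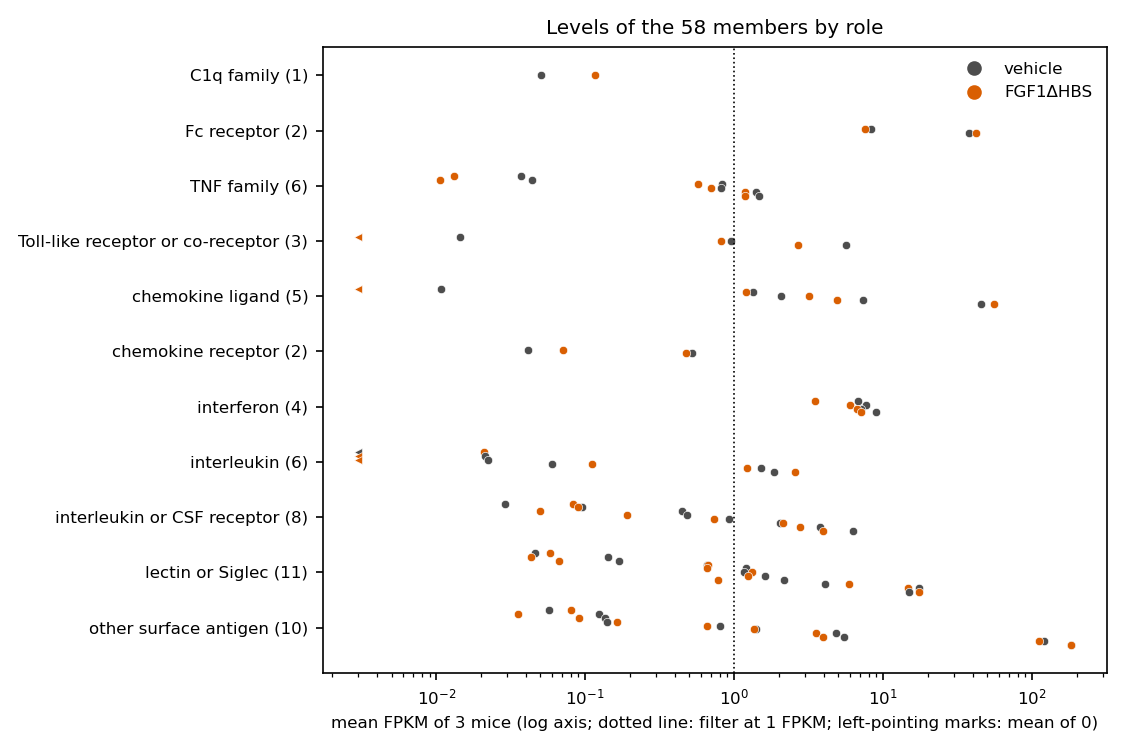
Mean FPKM of 3 mice for each of the 58 members (log x axis), grouped by role with the number of members in parentheses, in vehicle (grey) and FGF1ΔHBS (orange) hearts. The 6 highest members lie at 10 FPKM or more, and marks at the left edge are means of 0. The dotted filter at 1 FPKM applies to the mean over 6 mice, so a group mean of a member can lie on its other side, such as the vehicle mean of *Clec12a* at 1.20 FPKM and the treated mean of *Cd72* at 0.779 FPKM.

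Vehicle and FGF1ΔHBS were set against each other by limma, on log2(FPKM + 1), a scale that understates changes of low genes, over the 2041 genes averaging at least 1 FPKM, with p-values adjusted by the Benjamini-Hochberg method. Of all genes tested, 0.098% passed an adjusted p-value of 0.05 by limma, against 0 of 29 members. An unadjusted p-value under 0.05 was reached by 17.1% of all genes tested and by 7 of 29 members (24.1%). Lower with FGF1ΔHBS were 10% of all genes and 6 members (20.7%), and higher were 7.1% of all genes and 1 member (3.45%). The median log2 fold change of the members tested was -0.11, against -0.02 for all genes tested, and 20 members (69%) had a value below 0, against 54.8% of all genes. In 5 members (17.2%) every treated mouse was below every vehicle-treated mouse, in 0 every treated mouse was above, and the shares of all genes tested were 13.6% and 10.7%, or 24.3% in either direction.

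**Figure D2:**
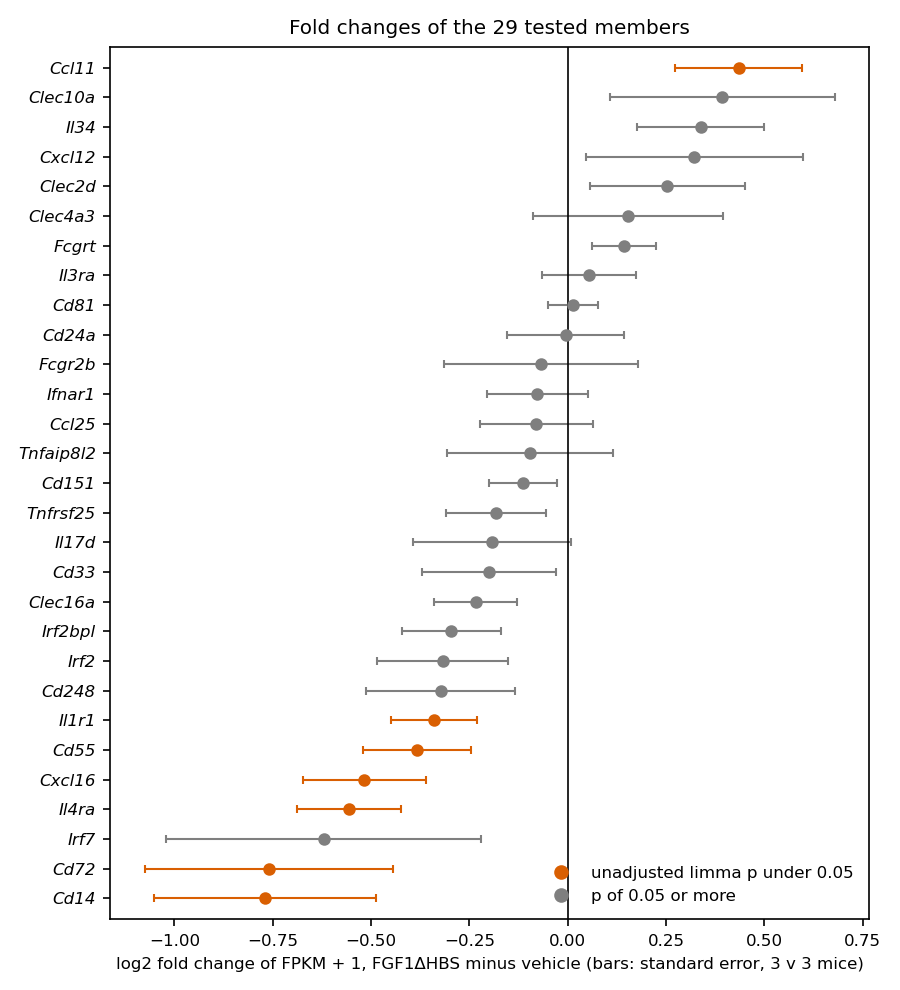
Log2 fold change of FPKM + 1, FGF1ΔHBS minus vehicle (x axis), for the 29 members tested, with bars of 1 standard error from limma on 3 mice a group. Orange marks an unadjusted p-value under 0.05: 6 members lie below 0 and *Ccl11* above, and *Irf7*, at -0.62, has the widest bar.

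Among receptors of interleukins, *Il4ra* (ENSMUSG00000030748, GRCm38 chromosome 7, 125552120 to 125579474) was at 5.35, 6.05 and 7.35 FPKM in vehicle replicates 1 to 3 and at 3.31, 4.28 and 4.17 FPKM in FGF1ΔHBS replicates 1 to 3. The groups did not overlap, and the lowest vehicle value was 5.35 FPKM against a highest treated value of 4.28 FPKM. The group means were 6.25 ± 1.02 FPKM and 3.92 ± 0.532 FPKM (SD, n = 3), a ratio of 0.627. The log2 fold change was -0.56 (standard error 0.13, unadjusted p = 0.00399, adjusted p = 0.116 by limma). The exact permutation test of *Il4ra* gave p = 0.1 (two-sided), the smallest that 3 mice against 3 allow, and the same holds for each member whose groups did not overlap. Over 15 alternatives its log2 fold change stayed between -0.66 and -0.45 and its adjusted p-value by limma between 0.0753 and 0.346. Its exons overlap those of *Gm44876* on the opposite strand, and the sources used here do not say that counting kept the strand.

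*Il1r1*, which starts NF-kB signalling when IL-1 binds, lies on chromosome 1 (ENSMUSG00000026072, 40225080 to 40317257). Its vehicle values were 4.14, 3.98 and 3.24 FPKM and its treated values 2.53, 2.89 and 2.90 FPKM. The groups did not overlap, and vehicle replicate 3 was the nearest to the treated mice. The means were 3.79 ± 0.481 FPKM and 2.77 ± 0.212 FPKM (SD, n = 3), with a log2 fold change of -0.34 (standard error 0.11, unadjusted p = 0.0162, adjusted p = 0.173 by limma). An unadjusted p-value under 0.05 was kept in 11 of 14 alternatives, and was lost without vehicle replicate 1, vehicle replicate 2 or FGF1ΔHBS replicate 1.

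The other receptors of this class showed no such separation. *Il3ra*, the IL-3 receptor's specific chain, was at 2.03 ± 0.314 FPKM and 2.14 ± 0.252 FPKM (SD, n = 3), and its groups overlapped. *Il6ra* (0.925 ± 0.236 FPKM and 0.731 ± 0.0814 FPKM) and *Csf2rb2*, a beta chain for IL-3 (0.481 ± 0.298 FPKM and 0.190 ± 0.069 FPKM), were too low to test. *Il7r*, a receptor of lymphocytes and some macrophages, was at 1.11 FPKM in vehicle replicate 3 and at 0.0119 to 0.163 FPKM in the other 5 mice. *Il17rb* and the soluble decoy receptor *Il22ra2* averaged 0.0921 and 0.0559 FPKM.

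Of the chemokines, *Cxcl12*, which holds *Cxcr4*-bearing cells in tissue, was the most abundant, at 59.7, 48.9 and 28.7 FPKM with vehicle and 60.0, 42.1 and 66.0 FPKM with FGF1ΔHBS. The groups overlapped widely and vehicle replicate 3 was the lowest. The log2 fold change of 0.32 (standard error 0.28, adjusted p = 0.594 by limma) was 0.03 without that mouse. *Ccl25*, the ligand of *Ccr9*, was at 1.35 ± 0.347 FPKM and 1.21 ± 0.183 FPKM (SD, n = 3).

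*Cxcl16* (ENSMUSG00000018920, chromosome 11, 70453983 to 70459984), which binds *Cxcr6* when shed and takes up oxidized lipoprotein at the cell surface, was at 8.09, 6.53 and 7.35 FPKM with vehicle and 5.77, 3.61 and 5.26 FPKM with FGF1ΔHBS. The groups did not overlap. The means were 7.32 ± 0.779 FPKM and 4.88 ± 1.13 FPKM (SD, n = 3), a ratio of 0.666. The log2 fold change was -0.52 (standard error 0.16, unadjusted p = 0.0128, adjusted p = 0.156 by limma). It stayed between -0.63 and -0.35 in 15 alternatives, with unadjusted p-values of 0.00510 to 0.0456 and adjusted p-values of 0.122 to 0.362 by limma. The locus of *Cxcl16* in the deposited table is 2.04 times as wide as the annotated gene, and its exons overlap those of *Zmynd15* on the opposite strand.

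*Ccl11* (ENSMUSG00000020676, chromosome 11, 82057823 to 82062955) went the other way, at 2.58, 1.91 and 1.72 FPKM with vehicle and 3.14, 3.87 and 2.47 FPKM with FGF1ΔHBS. The groups overlapped, since vehicle replicate 1 was above FGF1ΔHBS replicate 3. The means were 2.07 ± 0.449 FPKM and 3.16 ± 0.701 FPKM (SD, n = 3), with a log2 fold change of 0.43 (standard error 0.16, unadjusted p = 0.0302, adjusted p = 0.232 by limma). An unadjusted p-value under 0.05 was kept in 10 of 14 alternatives. It was lost without vehicle replicate 2, vehicle replicate 3, FGF1ΔHBS replicate 1 or FGF1ΔHBS replicate 2.

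**Figure D3:**
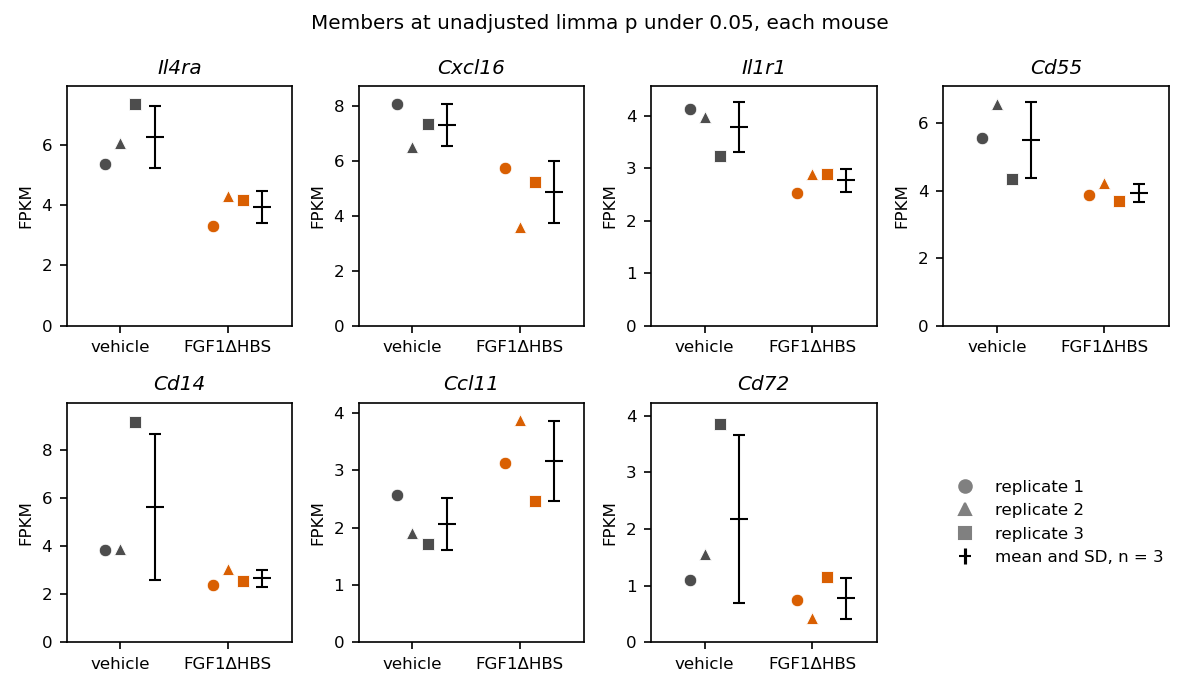
FPKM (y axis from 0) of each mouse for the 7 members at an unadjusted limma p-value under 0.05, vehicle in grey and FGF1ΔHBS in orange, with symbols for replicates 1 to 3 and black marks for the mean and SD (n = 3). The groups do not overlap for *Il4ra*, *Cxcl16*, *Il1r1*, *Cd55* and *Cd14*, and vehicle replicate 3 stands alone at 9.17 FPKM of *Cd14* and 3.86 FPKM of *Cd72*.

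Both partners of 4 ligand and receptor pairs of chemokines, interleukins or the TNF family were among the members. At least 1 partner was under 1 FPKM in each pair. *Ccr9* averaged 0.0563 FPKM beside its ligand *Ccl25* at 1.28 FPKM, and *Ccr10* averaged 0.497 FPKM while its ligand *Ccl27b* was listed above 0 in only 1 mouse, vehicle replicate 2, at 0.0321 FPKM. *Il25* (0.0852 FPKM) and its receptor *Il17rb* (0.0921 FPKM) were both low, as were *Tnfsf8*, the CD30 ligand, and its receptor *Tnfrsf8* (0.0274 and 0.0251 FPKM).

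Of the 6 interleukins, *Il34* and *Il17d* were tested and the others averaged under 0.1 FPKM. *Il34*, a ligand of the macrophage growth factor receptor, was the most abundant, at 2.55, 1.58 and 1.44 FPKM with vehicle and 2.87, 2.24 and 2.61 FPKM with FGF1ΔHBS. Its groups overlapped through vehicle replicate 1. The log2 fold change, 0.34, had a standard error of 0.16 and an unadjusted p = 0.0742 (adjusted p = 0.343 by limma), and an unadjusted p-value under 0.05 was reached in 3 of 14 alternatives. *Il17d* was at 1.52 ± 0.435 FPKM and 1.22 ± 0.526 FPKM (SD, n = 3). *Il10*, *Il31* and *Il17c* were each listed above 0 in a single mouse, at 0.0627 to 0.0667 FPKM.

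*Cd14* (ENSMUSG00000051439, chromosome 18, 36725067 to 36726798) presents bacterial lipid to *Tlr4* and marks macrophages and monocytes. It was at 3.84, 3.91 and 9.17 FPKM with vehicle and 2.40, 3.04 and 2.55 FPKM with FGF1ΔHBS. The groups did not overlap, and vehicle replicate 3 was 2.37 times the mean of the other vehicle-treated mice. The means were 5.64 ± 3.06 FPKM and 2.66 ± 0.338 FPKM (SD, n = 3), with a log2 fold change of -0.77 (standard error 0.28, unadjusted p = 0.0287, adjusted p = 0.230 by limma). Without vehicle replicate 3 the log2 fold change was -0.42 (unadjusted p = 0.00658, adjusted p = 0.0756 by limma), and the unadjusted p-value was no longer under 0.05 without FGF1ΔHBS replicate 1 or 3, with quantile normalization or with a GC correction.

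The Toll-like receptors of the table were low. *Tlr7*, the endosomal sensor of single-stranded RNA, was at 0.959 ± 0.293 FPKM and 0.822 ± 0.198 FPKM (SD, n = 3), and *Tlr12* was listed above 0 only in vehicle replicate 3, at 0.0434 FPKM.

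Of the genes of interferon signalling, *Ifnar1*, a chain of the type I interferon receptor, was at 7.10 ± 1.20 FPKM and 6.63 ± 0.621 FPKM (SD, n = 3). *Irf2*, which holds down interferon-stimulated genes, was at 7.71 ± 1.58 FPKM and 5.97 ± 1.20 FPKM (SD, n = 3), a log2 fold change of -0.32 (standard error 0.17, adjusted p = 0.381 by limma). *Irf2bpl*, a ubiquitin ligase linked to this family by name, was at 8.90 ± 1.22 FPKM and 7.06 ± 0.921 FPKM (SD, n = 3), with a log2 fold change of -0.30 (standard error 0.13, unadjusted p = 0.05004, adjusted p = 0.289 by limma). The groups overlapped in all of these.

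*Irf7*, the master factor of the type I interferon response, differed between the group means through 1 mouse. Its values were 3.91, 3.71 and 12.6 FPKM with vehicle and 2.94, 4.50 and 3.01 FPKM with FGF1ΔHBS. Vehicle replicate 3 was 3.31 times the mean of the other vehicle-treated mice, and these lay within the range of the treated mice. The log2 fold change of -0.62 (standard error 0.40, adjusted p = 0.475 by limma) was -0.12 without vehicle replicate 3. The locus of *Irf7* in the deposited table is 9.99 times as wide as the annotated gene, and its exons overlap those of *Phrf1*, so reads of neighbouring genes may be included, which was not tested.

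*Cd72* (ENSMUSG00000028459, chromosome 4, 43446462 to 43454628), an inhibitory lectin of B cells and some macrophages, was also highest in vehicle replicate 3. It was at 1.11, 1.57 and 3.86 FPKM with vehicle and 0.756, 0.428 and 1.15 FPKM with FGF1ΔHBS. The groups overlapped narrowly, since FGF1ΔHBS replicate 3 was just above vehicle replicate 1, while vehicle replicate 2 was above every treated mouse. The log2 fold change was -0.76 (standard error 0.31, unadjusted p = 0.0457, adjusted p = 0.282 by limma). It was -0.41 without vehicle replicate 3 (unadjusted p = 0.0699, adjusted p = 0.252 by limma) and -1.27 with a pseudocount of 0.1. The unadjusted p-value stayed under 0.05 in 7 of 14 alternatives, and was also above it without FGF1ΔHBS replicate 1 or 2, without a filter, and under median ratio scaling, quantile normalization or a GC correction. The exons of *Cd72* overlap those of *Tesk1* on the opposite strand.

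The remaining lectins and Siglecs went in both directions. *Clec2d*, a ligand of an inhibitory receptor of natural killer cells, was at 14.8 ± 4.05 FPKM and 17.5 ± 2.09 FPKM (SD, n = 3). *Clec16a*, an endosomal protein of autophagy and not a surface lectin, was at 17.5 ± 2.01 FPKM and 14.7 ± 1.29 FPKM, with a log2 fold change of -0.23 (standard error 0.11, unadjusted p = 0.0617, adjusted p = 0.312 by limma). *Clec10a*, a galactose-binding lectin of macrophages, was at 4.29, 2.84 and 5.13 FPKM with vehicle and 4.37, 9.07 and 4.21 FPKM with FGF1ΔHBS.

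The treated mean of *Clec10a* was the higher, but FGF1ΔHBS replicate 2 alone stood above the vehicle range (log2 fold change 0.39, standard error 0.29, adjusted p = 0.533 by limma). *Cd33* was at 1.61 ± 0.611 FPKM and 1.24 ± 0.152 FPKM (SD, n = 3), and *Clec4a3* at 1.16 ± 0.705 FPKM and 1.32 ± 0.246 FPKM. *Clec12a*, *Siglec1*, *Clec4b1*, *Cd22* and *Siglecg* averaged 0.0521 to 0.930 FPKM and were not tested. *Clec12a* and the macrophage Siglec *Siglec1* were highest in vehicle replicate 3, at 2.32 and 1.07 FPKM.

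Of the Fc receptors, *Fcgrt*, which recycles IgG and albumin, was at 38.04 ± 3.26 FPKM and 42.0 ± 1.94 FPKM (SD, n = 3), with a log2 fold change of 0.14 (standard error 0.08, adjusted p = 0.410 by limma). *Fcgr2b*, the inhibitory receptor for IgG, was at 6.27, 6.33 and 12.2 FPKM with vehicle and 6.69, 9.23 and 6.77 FPKM with FGF1ΔHBS. Its log2 fold change of -0.07 (standard error 0.25, adjusted p = 0.916 by limma) turned to 0.22 without vehicle replicate 3, which was 1.94 times the mean of the other vehicle-treated mice.

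In the TNF family, *Tnfrsf25*, a receptor of T cells, was at 1.47 ± 0.149 FPKM and 1.19 ± 0.278 FPKM (SD, n = 3). *Tnfaip8l2*, a brake on receptor signalling in leukocytes, was at 1.41 ± 0.760 FPKM and 1.18 ± 0.0559 FPKM, and its log2 fold change of -0.10 turned to 0.14 without vehicle replicate 3. *Tnfaip6*, a secreted protein of inflamed matrix, and *Tnfrsf22*, a decoy receptor, averaged 0.753 and 0.701 FPKM.

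Among the other surface antigens, *Cd55* (ENSMUSG00000026399, chromosome 1, 130439027 to 130462744) speeds the decay of complement convertases. It was at 5.57, 6.58 and 4.35 FPKM with vehicle and 3.87, 4.24 and 3.71 FPKM with FGF1ΔHBS. The groups did not overlap, though vehicle replicate 3 was close to FGF1ΔHBS replicate 2. The means were 5.50 ± 1.12 FPKM and 3.94 ± 0.273 FPKM (SD, n = 3), with a log2 fold change of -0.38 (standard error 0.14, unadjusted p = 0.0260, adjusted p = 0.221 by limma). Without vehicle replicate 3 it was -0.52 with an adjusted p = 0.0440 by limma, the only adjusted p-value under 0.05 of a member in any of the alternatives. In that fit 82 of 2041 genes passed this threshold, beside 1 of 29 members. Without vehicle replicate 1, vehicle replicate 2, FGF1ΔHBS replicate 1 or FGF1ΔHBS replicate 3 the unadjusted p-value of *Cd55* was above 0.05. The locus of *Cd55* in the table is 4.98 times as wide as the annotated gene.

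*Cd248*, endosialin of fibroblasts and pericytes, was at 5.10, 6.09 and 3.26 FPKM with vehicle and 3.90, 3.68 and 3.10 FPKM with FGF1ΔHBS. Its groups overlapped through vehicle replicate 3, and the log2 fold change of -0.32 (standard error 0.19, adjusted p = 0.430 by limma) became -0.53 without that mouse (unadjusted p = 0.00248, adjusted p = 0.0532 by limma). *Cd24a* was at 1.40 ± 0.468 FPKM and 1.37 ± 0.0431 FPKM (SD, n = 3). *Cd46*, *Cd8a*, *Cd101*, *Cd160* and *Cd226* averaged 0.0688 to 0.730 FPKM, and *C1qtnf3*, the 1 member of the C1q family, was at 0.0507 ± 0.0524 FPKM and 0.117 ± 0.0383 FPKM (SD, n = 3).

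Vehicle replicate 3 stood apart in these genes. Of the 29 members tested it was the highest of the 6 mice in 10 (34.5%), against 15.8% of all genes tested, and of all 58 members in 20. Of the 29 it was the lowest in 7, against 26.9% of all genes tested. In 8 members tested (27.6%) it was at least 1.5 times the median of the other 5 mice, against 3.48% of all genes. The other libraries exceeded that fold in 0 to 2 members. The 8 were *Cd14*, *Cd33*, *Cd72*, *Clec4a3*, *Fcgr2b*, *Il4ra*, *Irf7* and *Tnfaip8l2*, all genes of myeloid or B cells except that *Irf7* and *Il4ra* are used more widely. The fold of 1.5 was chosen after the values were seen.

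Of 20 genes of the leukocyte lists that are no members, the same mouse was the highest in 12 and the lowest in 2, *Fyn* and *Cma1*. Only 8 of the 20 averaged 1 FPKM or more, and of these it was the highest in 5 and the lowest in 2. Of all genes tested it was the highest in 15.8% and the lowest in 26.9%. The macrophage marker *Aif1* and the lymphocyte genes *Blk* and *Lck* were higher in another mouse. The pan-leukocyte gene *Ptprc* was at 3.43 FPKM in it and at 1.01 to 1.67 FPKM in the others, and the myeloid factor *Spi1* at 5.597 FPKM against 1.51 to 2.58 FPKM. Of the 5 endothelial, fibroblast and mast cell markers, vehicle replicate 3 was the lowest in 3, beside the 26.9% of all genes tested. These were *Emcn* (10.0 FPKM against 13.5 to 25.6 FPKM), *Dcn* (154 FPKM against 284 to 431 FPKM) and the mast cell protease *Cma1* (0.656 FPKM against 2.06 to 3.05 FPKM). It was not the lowest in *Tie1* or *Kit*. The 2 mast cell markers, *Kit* and *Cma1*, are counted both in these 5 and in the 20 genes of the leukocyte lists. The part of these differences in the results for the members was not tested beyond leaving the mouse out. Within groups the members varied more than other genes, with a median standard deviation of log2 values of 0.23 against 0.13 for all genes tested. This comparison includes vehicle replicate 3 and was not matched on level. At least 5 FPKM was the mean of 13 of the 29 members and of 1262 of the 2041 genes.

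**Figure D4:**
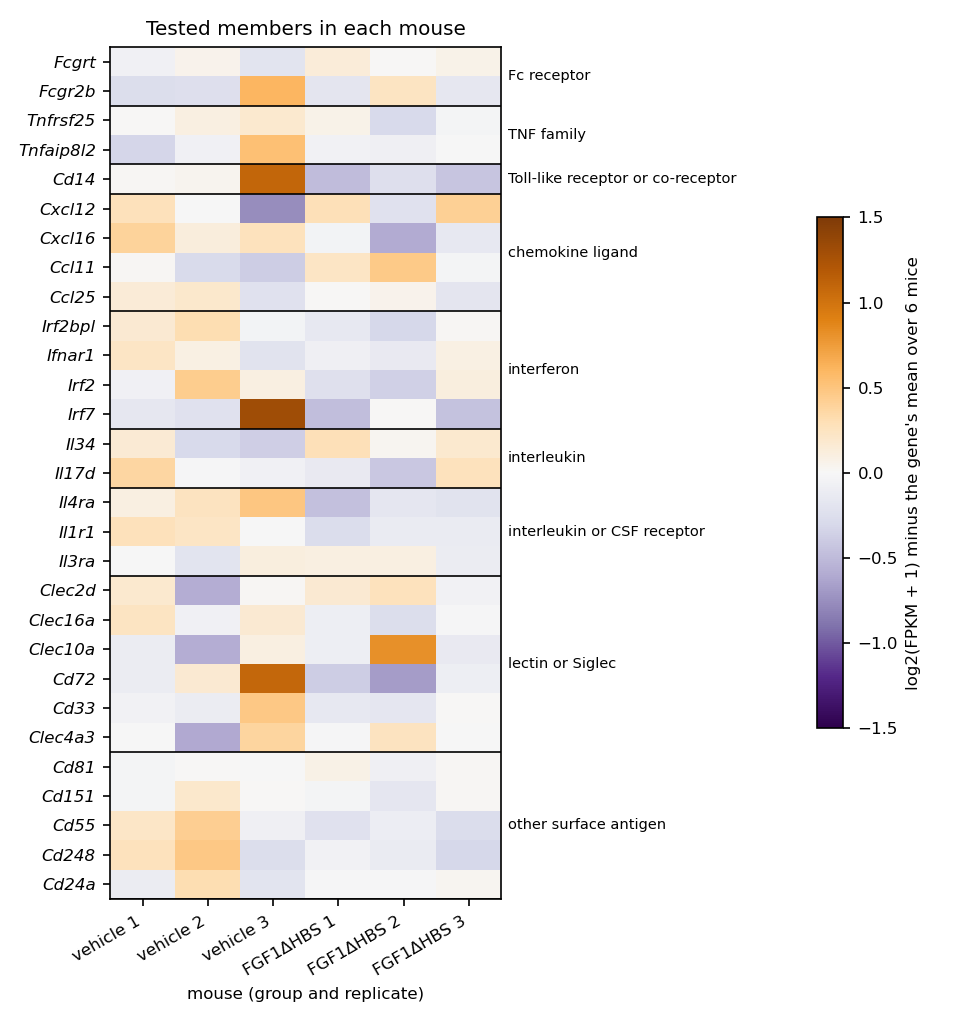
Log2(FPKM + 1) of the 29 members tested minus each gene's mean over 6 mice (colour scale), by mouse (x axis) and role. Vehicle replicate 3 is the highest of the 6 mice in 10 members, among them *Irf7*, *Cd14*, *Cd72* and *Fcgr2b*. It is the lowest in 7, among them *Cxcl12*.

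Markers of leukocyte types were few in the table, which holds only part of a transcriptome. Of 13 cardiomyocyte markers it held 3, so a marker that is missing says nothing about its cells. The macrophage list held *Cd14* and *Aif1* of 19 genes, and their summed level was 4.72 to 10.97 FPKM with vehicle and 3.16 to 5.08 FPKM with FGF1ΔHBS. *Aif1* alone was at 1.22 ± 0.514 FPKM and 1.36 ± 0.640 FPKM (SD, n = 3), so it did not show the lower treated mean of *Cd14*. The B cell list held *Cd72*, *Cd22* and *Blk* of 9 genes (1.45 to 4.10 FPKM and 0.448 to 1.42 FPKM), most of which was *Cd72*.

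The T cell list held *Cd8a*, *Cd8b1* and *Lck* of 14 genes (0.179 to 0.720 FPKM and 0.1496 to 0.450 FPKM). The natural killer cell list held *Klrk1* of 8, which was at 0.0432 to 0.196 FPKM with vehicle and listed at 0 in every treated mouse. The mast cell list held *Kit* and *Cma1* of 7 (1.15 to 4.23 FPKM and 2.76 to 3.46 FPKM), and no gene of the dendritic cell and neutrophil lists was analysed here. Of the other cell types, *Dcn* was higher with FGF1ΔHBS (242 ± 76.2 FPKM and 403 ± 32.0 FPKM, SD, n = 3, log2 fold change 0.79, unadjusted p = 0.0119, adjusted p = 0.154 by limma). *Nppa*, a gene of stressed cardiomyocytes, was lower in mean (221 ± 189 FPKM and 48.5 ± 26.4 FPKM, SD, n = 3, unadjusted p = 0.0296, adjusted p = 0.231 by limma). Its groups overlapped, with 62.2 FPKM in vehicle replicate 3 and 75.4 FPKM in FGF1ΔHBS replicate 1, while vehicle replicate 2 was at 431 FPKM. The endothelial genes *Tie1* and *Emcn* (21.7 to 46.7 FPKM and 24.9 to 42.0 FPKM in sum) and the globin *Hbb-bt* (192 to 397 FPKM and 118 to 204 FPKM) overlapped between groups. *Adipoq*, of adipocytes, was at 0 to 0.217 FPKM with vehicle and 0.246 to 1.21 FPKM with FGF1ΔHBS, and *Slc12a1*, of the kidney, at 0 to 0.844 FPKM. Their part in the results for the members was not tested.

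Genes of related pathways and leukocyte functions were taken from 9 lists, and not all of them act downstream of these receptors. The lists were of JAK-STAT and NF-kB signalling, Toll-like and IL-1 receptor signalling, complement, immunoreceptor signalling, the inflammasome, leukocyte adhesion, leukocyte transcription factors and the oxidative burst. Of 158 such genes that are no members, 31 were analysed and 16 tested. At an unadjusted p-value under 0.05, 3 were lower with FGF1ΔHBS and 0 higher, beside 10% and 7.1% of all genes tested, and none passed an adjusted p-value of 0.05 by limma. Their median log2 fold change was -0.23, against -0.02 for all genes tested. Vehicle replicate 3 was the highest mouse for *Ptprc*, *Laptm5*, *Spi1*, *Cebpd*, *Ncf1*, *Jak3*, *C1ra*, *Ptpn11*, *Tbk1* and *Birc3* among them. It was the lowest for *Fyn* and *Jak2*. How far this median rests on that mouse was not tested.

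*Jak3*, the kinase that works with the common gamma chain of the IL-4 receptor, was at 9.83, 9.91 and 11.7 FPKM with vehicle and 6.20, 7.40 and 5.36 FPKM with FGF1ΔHBS. The groups were apart, with a log2 fold change of -0.66 (standard error 0.12, unadjusted p = 0.00106, adjusted p = 0.116 by limma). *Relb*, an NF-kB subunit, was at 3.29, 4.94 and 3.64 FPKM with vehicle and 2.70, 2.53 and 2.21 FPKM with FGF1ΔHBS, again without overlap (log2 fold change -0.50, standard error 0.14, unadjusted p = 0.00913, adjusted p = 0.148 by limma). *Socs2*, a feedback inhibitor of JAK-STAT signalling, was at 16.6 ± 4.42 FPKM and 11.3 ± 2.04 FPKM (SD, n = 3, unadjusted p = 0.0480, adjusted p = 0.288 by limma), with overlap. *Jak2*, used by many cytokine receptors, was at 6.003 ± 0.461 FPKM and 6.42 ± 0.169 FPKM (SD, n = 3).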

How the data were processed

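RNA-Seq of 6 hearts of *db/db* mice was analysed. The authors deposited FPKM values, 1 per gene and mouse. The submitters' processing notes name HISAT2 2.0, StringTie 1.3.0, Bowtie 0.12.2 and the build mm8. The loci of 4104 of 4111 matched identifiers nevertheless overlap the same gene in GENCODE M21, so GRCm38 positions were taken from there. The paper describes single-end reads and the labels paired-end libraries, and the labels' library protocol mentions adipose tissue although the tissue is given as heart. The loci of 1206 genes span more than 1.5 times the annotated gene, so a value may include neighbouring genes. The table ends within the annotation of its last gene, so its 4132 genes are part of a transcriptome.

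Values were taken as log2(FPKM + 1), with a filter at a mean of 1 FPKM (2041 genes), and compared without pairing by limma 3.58.1 in R 4.3.3 (eBayes with trend, Benjamini-Hochberg adjustment over all 2041 genes, threshold 0.05). The fit was tested on simulated data. For a member whose groups did not overlap, the two-sided exact permutation test of 3 mice against 3 gives p = 0.1. No exact p-value was computed for members whose groups overlapped. FPKM values give no counts, so no counting intervals are given.

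The rule for the members uses names alone, but the rule and the lists were chosen with earlier results of these data known. Named are members at an unadjusted p-value under 0.05, the 3 most abundant of each role, the 10 largest fold changes, members that mark leukocytes, members whose ligand or receptor is named, and, of other genes, cell type markers and up to 3 genes of a list at an unadjusted p-value under 0.05. Other members are named so that each is accounted for. Samples with the same replicate number were not alike (correlations of deviations -0.01, -0.16 and -0.22). The labels give each library as its own sample and the paper counts 3 mice per group. Alternatives were filters at 5 FPKM or none, a pseudocount of 0.1, median ratio and quantile scaling, other forms of eBayes, a replicate block, a GC correction and leaving out each mouse.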

Additional observations from a re-analysis of the deposited data

How the results depend on the processing

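The number of genes past an adjusted p-value of 0.05 by limma was 2. It was 4 with a pseudocount of 0.1, 0 without a filter, 1 with median ratio scaling, quantile normalization, eBayes without trend or the GC correction, 5 with robust eBayes, 0 with the replicate block and 0 to 82 when each mouse was left out, 82 being without vehicle replicate 3. Of the members 0 passed, and 7 had an unadjusted p-value under 0.05. Only the fit that left out vehicle replicate 3 gave 1, *Cd55*, and every other alternative gave 0. Members at an unadjusted p-value under 0.05 were 8 with the replicate block, beside 13.2% of all genes tested. With a minimum of 5 FPKM, 2 of 13 members tested had such a p-value (0 higher, 2 lower), beside 19.7% of all genes. In that fit the groups of 2 members did not overlap. When a mouse was left out, 2 to 7 members had such a p-value (0 to 2 higher, 2 to 7 lower), beside 11.3% to 24.2% of all genes. Without vehicle replicate 3 it was 7 of 29 members, beside 24.2% of all genes. Against 1 member higher, median ratio scaling and quantile normalization each gave 2 and the GC correction 3, and members lower went from 6 to 4 with quantile normalization and with the GC correction. Over all genes, 145 were higher and 204 lower, whereas median ratio scaling gave 184 and 182, quantile normalization 180 and 173, and the GC correction 182 and 170. The members' median log2 fold change was -0.0725 over all 58 without a filter and -0.171 to -0.0808 when a mouse was left out. Then 6 to 12 members did not overlap, since fewer mice were compared. The share of all genes without overlap was not computed for the alternatives. The replicate block changed no other call of a member named in the results except that *Clec16a* came under an unadjusted p-value of 0.05. The sign turned for *Cd24a* (0.00646 with a pseudocount of 0.1, 0.0107 with median ratio scaling) and *Cd81* (-0.0487 with quantile normalization). When a mouse was left out the log2 fold change ran from -0.104 to 0.148 for *Cd24a*, -0.0181 to 0.0529 for *Cd81*, -0.197 to 0.0193 for *Ifnar1*, -0.110 to 0.381 for *Clec4a3*, -0.0271 to 0.123 for *Il3ra*, -0.283 to 0.144 for *Tnfaip8l2* and -0.213 to 0.217 for *Fcgr2b*. Other causes were not tested. FPKM values hide the counts behind low members, and with 3 mice a group the exact permutation test cannot go under 0.1.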

Other observations

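*Cd226*, a receptor of T and natural killer cells averaging 0.0795 FPKM, was the only member below the filter whose groups did not overlap, at 0.0537, 0.169 and 0.148 FPKM with vehicle and 0, 0.0528 and 0.0536 FPKM with FGF1ΔHBS. It was named after its values were seen. Without a filter its unadjusted p-value was 0.0465 and its adjusted p-value 0.416 by limma. *Klrk1*, another receptor of natural killer and T cells that is no member, was also lower in each treated mouse, and reached only 0.196 FPKM with vehicle. The T cell markers *Cd8a*, *Cd8b1* and *Lck* overlapped between groups, as did *Cd160*, whose treated mean was the higher. The share of all genes below the filter without overlap was not computed.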
